A study of Mus musculus with 4 samples.

Results

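Brain endothelial cells of wildtype mice were compared between midbrain and frontal cortex. The cells were those that the authors' cell tables label EC in the wildtype libraries: 2240 in frontal cortex and 1860 in midbrain, 4100 of the 21644 cells of the series and of the 13874 wildtype cells. The wildtype mice were littermates on the C57BL/6 strain and the transgenic mice, used here only as a second look at each gene, were of the Hua-Syn(A53T) strain, all aged 6-9 months. The promoter of the transgene is not given in the sources used here. Each combination of region and genotype was sequenced as 1 library with 10x Genomics 3′ chemistry, after a dissociation meant for glia and vessels. The labels state that both regions of a genotype came from the same group of 3 mice, although their mouse number reads 3 for frontal cortex and 0 for midbrain, and the tables do not say which cell came from which mouse. With 1 library on each side there was no replicate, so no test was run and every difference below is between libraries. The transgenic EC cells, 861 in frontal cortex and 792 in midbrain, come from libraries of their own and were set beside each wildtype value.

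Endothelial cells line the blood vessels. In most of the brain they form the blood-brain barrier: they are joined by tight junctions, carry nutrients in through solute carriers, push drugs out through ATP-driven pumps and keep vesicle traffic across the cell low. Wnt signalling, received through Fzd4, Lrp5 or Lrp6 and the co-receptors Tspan12, Adgra2 and Reck, maintains this state. A few brain sites, such as the choroid plexus and the organs around the ventricles, have fenestrated vessels without it.

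The label held up against its markers. All 12 endothelial markers, Cldn5 and Flt1 among them, were higher in EC than in any other label of at least 50 cells in each of the 4 libraries. Summed EC counts of unique molecules (UMIs) were 21241336 in wildtype frontal cortex and 14750672 in wildtype midbrain, with medians of 8180.5 and 7221.5 per cell and median mitochondrial shares of 3.64% and 3.94%. The wildtype libraries shared 15 cell barcodes, and 1 of them was EC in both. Levels are UMIs of a gene per 1000000 summed EC UMIs (CPM). The log2 ratio of midbrain to frontal cortex is given with an exact 95% interval that covers counting error only, not differences between mice or preparations. Where a share of cells has an interval, it covers the draw of cells from 1 library and leaves out those differences too. Cells are not replicates of a region, so intervals of shares that do not overlap do not test a difference between regions.

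Endothelium of the 2 regions was very alike. Of 6704 genes with at least 20 CPM in either wildtype library, 95.2% were within 1.2 times of each other, and the median size of the log2 ratio was 0.07. A log2 ratio of 0.58, which is 1.5 times after rounding and is meant by that fold below, was reached by 54 genes (0.805%), of which 45 (0.671%) were higher and 9 (0.134%) lower in midbrain. At 1.2 times 325 genes differed (4.85%), 183 (2.73%) higher and 142 (2.12%) lower in midbrain. For scale, the same rule called 230 of 6643 genes (3.46%) in wildtype microglia and 989 of 7193 (13.7%) in wildtype astrocytes, whose summed UMIs were 14226837 and 7658123 for microglia and 8495103 and 16464237 for astrocytes in frontal cortex and midbrain. Between genotypes, with the libraries of the region comparison on one side of each, it called 146 of 6788 genes (2.15%) in frontal cortex EC and 129 of 6785 (1.9%) in midbrain EC. Just inside the threshold of 0.58 on the log2 scale were Ppp2cb at 0.581 and Fam71a at 0.602 on the higher side and Bmx at -0.611 on the lower side, and just outside it Sbspon at 0.579 and Ift43 at 0.577.

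**Figure D1:**
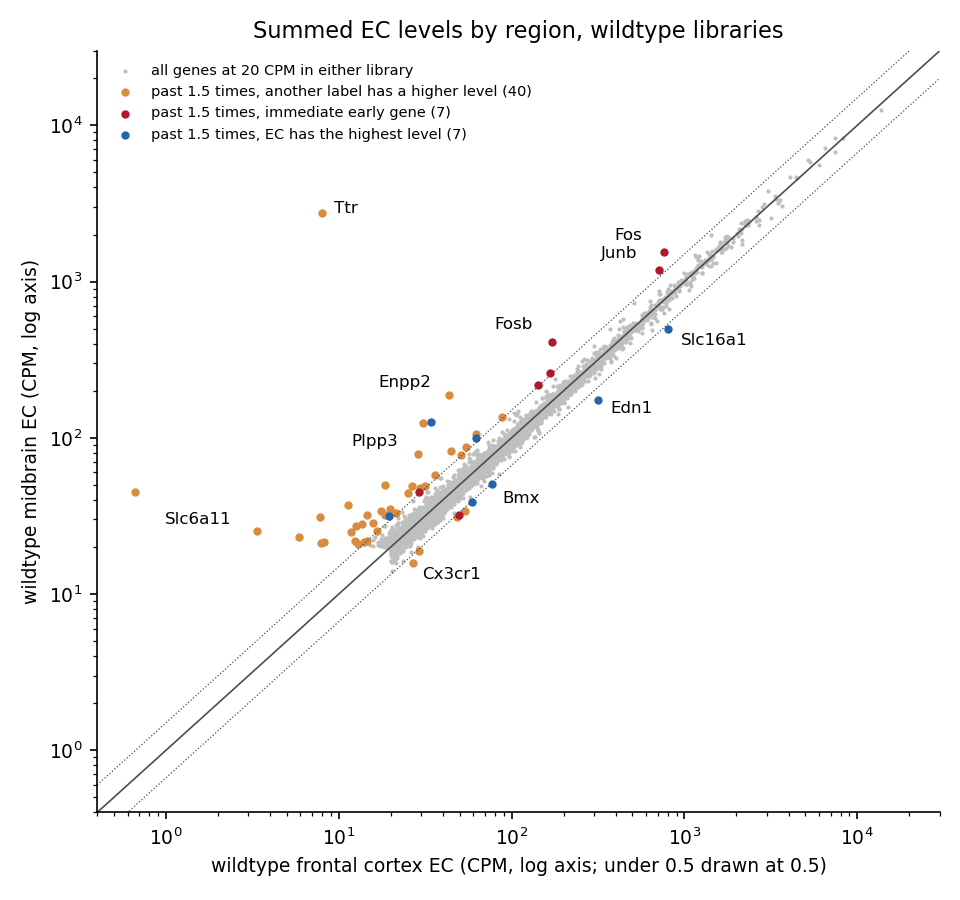
Summed EC levels of each gene at 20 CPM or more, wildtype frontal cortex on the horizontal and wildtype midbrain on the vertical log axis; the solid line marks equal levels and the dotted lines 1.5 times. Most genes lie between the dotted lines, Ttr stands far above them, and Slc16a1 and Edn1 are the most abundant genes below them.

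The barrier carriers were, with few exceptions, at the same level in both regions. Slc2a1, the glucose carrier GLUT1, was at 2117 CPM in wildtype frontal cortex and 2050 in midbrain, and at 2088 and 2161 in the transgenic libraries. Slc7a5, which carries large neutral amino acids, was at 816 and 763 CPM, and Mfsd2a, which carries lysophospholipids with docosahexaenoic acid and restrains vesicle traffic, at 229 and 214 CPM. Among 22 solute carriers of the list at 20 CPM, none was 1.2 times higher in midbrain, 2 were lower by that margin and 1 by 1.5 times. The median over all 25 listed carriers was -0.07, beside -0.02 over all genes.

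The exception past 1.5 times was Slc16a1, the monocarboxylate carrier MCT1 that moves lactate and ketone bodies across the endothelium (chromosome 3, 104638668 to 104658462, plus strand, GRCm38). It stood at 808 CPM in wildtype frontal cortex and 500 in wildtype midbrain, and at 553 and 216 in the transgenic frontal cortex and midbrain. Both midbrain libraries were below both frontal cortex libraries, as for 21.3% of all genes at the minimum. The narrowest gap between regions was that of wildtype midbrain, at 500 CPM, and transgenic frontal cortex, at 553. The log2 ratio was -0.69 (-0.73 to -0.65) in the wildtype and -1.35 in the transgenic pair, and EC was the label with the highest level in each library. After each cell was thinned to 3000 UMIs, 67.7% (65.6 to 69.6) of frontal cortex EC and 56.1% (53.6 to 58.5) of midbrain EC held a Slc16a1 UMI. Microglia, taken as a background type and thinned alike, held it in 6.98% and 4.65% of cells. Their median depths before thinning were 7373 and 6749 UMIs. The other carrier past 1.2 times was Slc7a1, which carries cationic amino acids, at 566 and 471 CPM (ratio -0.26, and -0.37 in the transgenic pair).

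Efflux pumps, junction proteins and Wnt genes were also close to equal. Abcb1a, the P-glycoprotein pump, was at 1633 CPM in frontal cortex and 1551 in midbrain, and Abcg2, the second main drug pump, at 1082 and 1123. Of 6 pumps at 20 CPM, 2 were lower by 1.2 times. Abca1, which exports cholesterol, was at 66.5 and 49.5 CPM in the wildtype and 76.7 and 55.4 in the transgenic libraries (ratios -0.43 and -0.47). Abcc5 had a ratio of -0.29, and -0.03 in the transgenic pair. No junction gene of 12 passed 1.2 times in either direction: Cldn5, the main tight junction claudin, was at 7391 and 6744 CPM and Ocln, the gene of occludin, at 300.5 and 315.5. The 7 Wnt receptors and co-receptors had ratios from -0.23 to 0.04 and none passed 1.2 times. Of 13 Wnt-responsive genes, 2 were lower by that margin: Spock2 stood at 3647 and 3030 CPM and Foxq1, a forkhead factor of brain vessels, stood at 764 and 633 CPM, each with a ratio of -0.27. Axin2 and Lef1, direct targets of the pathway, had ratios of -0.04 and -0.11.

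Caveolae form the vesicles that barrier endothelium keeps few. Cav1, their coat protein, was at 255 and 312 CPM in the wildtype libraries and at 225 and 309 in the transgenic ones. Both midbrain libraries were thus above both frontal cortex libraries, as for 12.1% of all genes at the minimum. The ratio was 0.29 (0.23 to 0.35) and 0.46. Cav1 alone of 10 genes of caveolae and receptor-borne transport passed 1.2 times. Tfrc, the transferrin receptor, had a ratio of -0.01, and Igf1r, the receptor for insulin-like growth factor, -0.22.

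Edn1 was the gene led by endothelium with the lowest ratio. It encodes endothelin-1, a peptide that makes smooth muscle and pericytes contract (chromosome 13, 42301476 to 42307990, plus strand). Its level was 316 CPM in wildtype frontal cortex, 174 in wildtype midbrain, 329 in transgenic frontal cortex and 202 in transgenic midbrain. The regions did not overlap, with both midbrain libraries lower, as for 21.3% of all genes at the minimum. The ratio was -0.86 (-0.93 to -0.80) in the wildtype and -0.70 in the transgenic pair. At equal depth a UMI was seen in 37.0% (35 to 39.1) of frontal cortex and 22.3% (20.3 to 24.4) of midbrain EC, beside 5.26% and 3.82% of microglia. Of 13 vasoactive and coagulation genes, 2 others passed 1.2 times. Adm, the gene of the dilator peptide adrenomedullin, was lower in midbrain in both genotypes, at 31.6 and 25.2 CPM in the wildtype and 29.7 and 22.4 in the transgenic libraries. Ramp3, a part of the adrenomedullin receptor, had ratios of 0.36 and -0.08. Nos3, the endothelial nitric oxide synthase, stood at 197.4 CPM in both wildtype libraries, Ece1, which cleaves the endothelin precursor, had a ratio of -0.08, and Calcrl, the receptor for calcitonin gene-related peptide, 0.04. The flow-induced factors Klf2 and Klf4 had ratios of 0.18 and 0.20 in the wildtype pair and 0.86 and 0.88 in the transgenic pair.

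The levels of these genes were also read in the authors' clusters. These were made separately for each region, so clusters set side by side need not hold the same vessel segments. In each region 4 clusters carry the EC label. Cluster 5 of frontal cortex and cluster 9 of midbrain were led by arterial genes (Fbln5, Gkn3, Mgp and Vegfc in both) and held 22.1% and 11.5% of wildtype EC, against 19.3% and 15.2% in the transgenic libraries. Cluster 6 of each region had the venous genes Icam1, Vcam1 and Slc38a5 among its leading genes. Cluster 14 of each region was shallow, with medians of 2250 and 1362 UMIs and genes of glia among its leading genes. Slc16a1 was low in the arterial clusters of both regions, at 198 and 109 CPM, and high in frontal cortex cluster 6, at 1438 CPM, against 574 CPM in midbrain cluster 6. Edn1 was highest in the arterial clusters, at 581 and 409 CPM. In the largest cluster of each region, cluster 0, it was at 249 and 101 CPM, while in cluster 6 it was at 163 and 196 CPM, higher in midbrain. Without the arterial clusters the ratio of Slc16a1 was -0.86 and that of Edn1 -0.71, and within them -0.86 and -0.51.

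**Figure D2:**
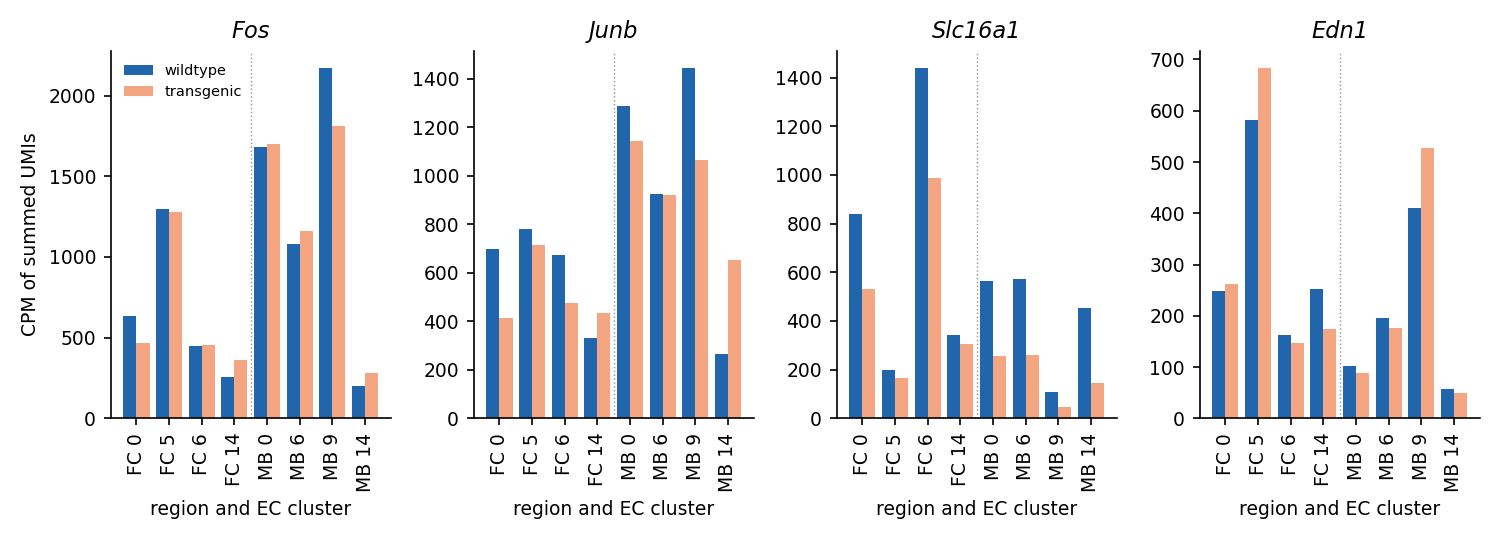
Levels of Fos, Junb, Slc16a1 and Edn1 (CPM of summed UMIs) in each EC cluster of frontal cortex (FC) and midbrain (MB), with a bar for the wildtype and a bar for the transgenic library. Slc16a1 peaks in FC 6 at 1438 CPM, Edn1 peaks in the arterial clusters FC 5 and MB 9, and Fos is higher in MB 0, 6 and 9 than in FC 0, 6 and 5 respectively, in both genotypes.

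Genes of arterial endothelium were mostly lower in wildtype midbrain, and so was the share of cells in the arterial clusters. Of 16 at 20 CPM, 7 were lower and 1 higher by 1.2 times, and the median over the 19 members was -0.21. In the transgenic pair the median was -0.04, and 1 gene was lower by 1.2 times in both pairs: Edn3, a vessel endothelin, at 136 and 101 CPM in the wildtype and 98.7 and 80.8 in the transgenic libraries. Hey1, a Notch target of arteries, was at 135 and 102 CPM in the wildtype and 91.9 and 89.6 in the transgenic libraries, and Bmx, an arterial kinase, at 76.9 and 50.4 and at 57.1 and 64.6. Bmx thus had opposite signs in the 2 genotypes. Without the arterial clusters the ratio of Bmx was 0.47, that of Hey1 0.06 and the median of the list 0.47. Within them the ratio of Bmx was -0.02 and the median 0.39, with Gkn3 at 434 and 865 CPM. The direction of the list thus turned with the split by cluster. The clusters were made separately for each region and need not divide arterial cells from others alike, and the part of this in the turn was not tested.

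Venous genes were slightly the other way. Icam1, the leukocyte adhesion molecule, was at 32.9 and 45.3 CPM in the wildtype and 29.3 and 41.3 in the transgenic libraries, and Vcam1, its counterpart for integrin binding, at 56.9 and 74.6 and at 56.2 and 60.6. These were the 2 of 10 venous genes past 1.2 times, and the median was 0.06. Capillary genes other than Slc16a1 and Spock2 stayed within 1.2 times, among them Car4 at -0.13 and Rgcc at 0.16.

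Transcription factors of endothelial identity were nearly equal. Of 26 genes, none was 1.2 times higher and 2 were lower, Mecom at -0.32 and Foxq1 at -0.27, while Erg, Fli1 and Sox17 had ratios of -0.09, -0.11 and 0.01. Genes that pattern the forebrain and midbrain in neural tissue were mostly below 20 CPM, and 5 of the 27 listed reached it. Irx3, a homeobox gene, was at 28.6 and 20.1 CPM in the wildtype and 17.1 and 9.77 in the transgenic libraries, with ratios of -0.51 (-0.71 to -0.30) and -0.81. Gata2, which acts in endothelium as well as in midbrain neurons, had a ratio of 0.01. Ptprb, the phosphatase that restrains the Tie2 receptor, was the endothelial core gene of 20 that passed 1.2 times, at 2141 and 1749 CPM, and at 2151 and 1752 in the transgenic libraries.

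The group with the most members past the thresholds was the immediate early genes, which cells transcribe within minutes of many stimuli and which encode AP-1 factors, other regulators and feedback inhibitors. A known control element of several of them is the cyclic AMP response element, whose core is TGACG. Upstream sequences of the 3 AP-1 genes with the largest ratios are shown because these genes lead the group. They are the 150 bases before the start site in the RefSeq promoter table of build GRCm38.p6, read 5′ to 3′ in the direction of the gene, with TGACG in capitals.
Fos (chr12:85473740-85473889, plus strand): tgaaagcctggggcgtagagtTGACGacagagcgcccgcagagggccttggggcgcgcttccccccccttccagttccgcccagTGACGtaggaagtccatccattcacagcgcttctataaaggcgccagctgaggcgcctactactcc
Fosb (chr7:19310046-19310195, minus strand): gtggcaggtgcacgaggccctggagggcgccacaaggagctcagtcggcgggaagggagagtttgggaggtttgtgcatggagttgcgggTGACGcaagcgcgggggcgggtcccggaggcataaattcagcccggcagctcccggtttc
Junb (chr8:84978749-84978898, minus strand): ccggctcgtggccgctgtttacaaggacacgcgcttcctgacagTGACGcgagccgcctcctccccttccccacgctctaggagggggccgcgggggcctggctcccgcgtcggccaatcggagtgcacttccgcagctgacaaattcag
The capitals begin at positions -129 and -66 of Fos, -60 of Fosb and -106 of Junb. Of the 22 immediate early genes at 20 CPM, 17 have an entry in the table, and 8 of these hold TGACG on either strand within 250 bases upstream, beside 17.8% of all 32851 promoters. The AP-1 site, TGACTCA or TGAGTCA, is in none of the 17 and in 4.46% of all promoters, and the CArG box of serum response factor is in 1, Zfp36, and in 1.47% of all. These letters describe the windows and say nothing of which factor acted.

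Fos, the founding member of the AP-1 factors (chromosome 12, 85473890 to 85477273, plus strand), was at 761 CPM in wildtype frontal cortex, 1540 in wildtype midbrain, 649 in transgenic frontal cortex and 1491 in transgenic midbrain. Both midbrain libraries were far above both frontal cortex libraries, and 12.1% of all genes at the minimum had that order at any distance. The ratio was 1.02 (0.99 to 1.05) and 1.2 in the transgenic pair. At equal depth 51.3% (49.1 to 53.4) of frontal cortex EC and 70.7% (68.4 to 72.9) of midbrain EC held a Fos UMI, beside 74.8% and 80.3% of microglia, which express it too. Fosb was at 172, 412, 159 and 428 CPM in the same order of libraries, and its ratio of 1.26 (1.2 to 1.32) was the largest of the list. Junb, a partner of Fos proteins (chromosome 8, 84974484 to 84978718, minus strand), was at 711, 1182, 499 and 1037 CPM.

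Of the 22 genes, 15 were higher by 1.2 times in midbrain and 6 by 1.5 times, beside 2.73% and 0.671% of all genes. By 1.2 times 1 was lower, beside 2.12% of all genes. The median over the 24 members was 0.35, and 0.70 in the transgenic pair, beside -0.02 over all genes. In both pairs 13 were higher by 1.2 times. Both midbrain libraries were above both frontal cortex libraries for 14, beside 12.1% of all genes at the minimum. Atf3, a stress-induced repressor, was at 167 and 259 CPM, Jund at 1418 and 1993, and Jun, the most abundant of them, at 3061 and 3810, a ratio of 0.32. Egr1, a zinc finger factor, had a ratio of 0.57, just under 1.5 times, and Gadd45g, a growth arrest gene, 0.62. The feedback genes Dusp1, a phosphatase of MAP kinases, and Zfp36, which promotes mRNA decay, had ratios of 0.30 and 0.43. Nr4a1, an orphan nuclear receptor, and Btg2 had ratios of 0.06 and -0.11, while in the transgenic pair they were 1.23 and 0.61. Ctgf, a target of YAP and TEAD, was the gene on the other side, at 49.6 and 32.1 CPM, with a ratio of -0.63 (-0.79 to -0.47) and -0.51 in the transgenic pair.

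The same genes differed by region in other labels, in both directions. The median ratio over the 22 genes was 0.36 in smooth muscle cells (SMC), 0.30 in macrophages (MAC, 21 genes) and 0.27 in microglia (MG), and 0.35 in EC over the same 22. It was -0.30 in pericytes (PC) and -0.96 in astrocytes (AC), where 19 of the 22 were lower by 1.2 times. Genes of other cell types also differed by region in AC and PC. The microglial gene Cx3cr1 had ratios of -2.76 and -3.81 there and the endothelial gene Cldn5 -1.90 and -0.98. Ttr, of choroid plexus, went the other way, at 8.49 and 7.86. The part of RNA from other types in the AC and PC medians was not tested. Fos had a ratio of 0.35 in SMC, 0.38 in MAC, 0.50 in MG, 0.15 in PC and -0.38 in AC, each below its 1.02 in EC. Other members differed in this. Egr1 and Gadd45b had ratios of 0.89 and 1.29 in MG, above their 0.57 and 0.63 in EC. Fosb and Junb had ratios of 0.36 and 0.32 in MG, below their 1.26 and 0.73 in EC. The level of Fos in EC was exceeded by 4 other labels in each wildtype library. The part of RNA from those labels in the EC level was not tested. In EC clusters 0, 6 and 9 of midbrain Fos was at 1680, 1082 and 2169 CPM, and in clusters 0, 6 and 5 of frontal cortex at 633, 449 and 1296 CPM.

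**Figure D3:**
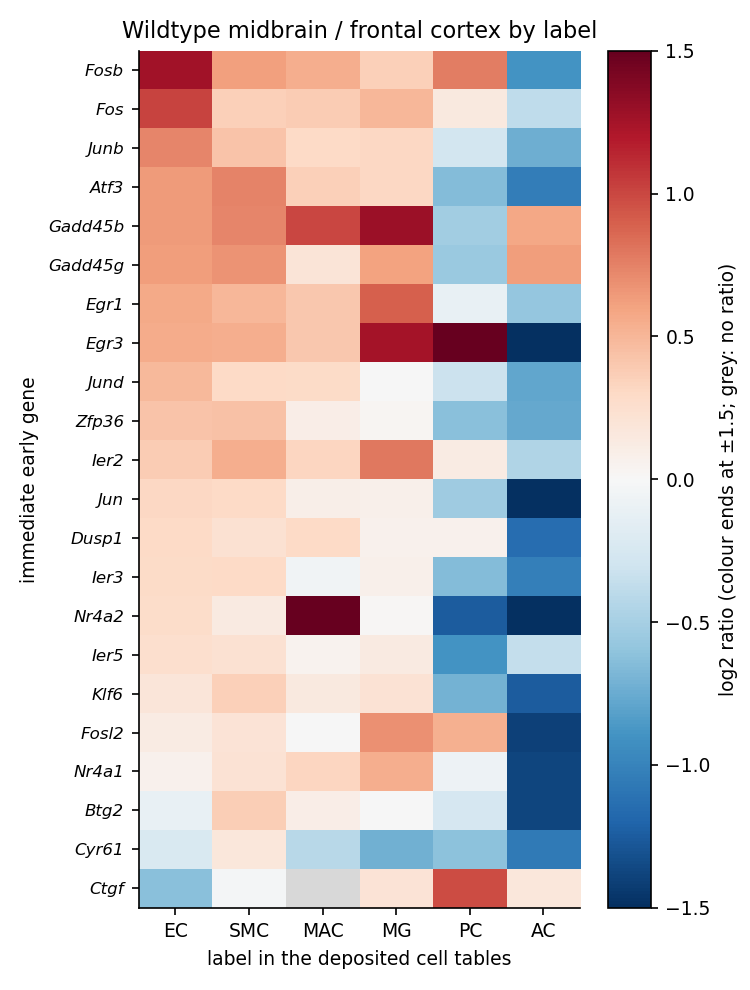
Wildtype log2 ratio of midbrain to frontal cortex for the 22 immediate early genes (rows, ordered by EC) in 6 labels of the deposited cell tables (columns), red for higher and blue for lower in midbrain. Most rows are red in EC, SMC, MAC and MG and blue in AC.

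Heat shock proteins and chaperones were higher in midbrain to a smaller degree. Of 15 at 20 CPM, 6 were higher and none lower by 1.2 times, beside 2.73% and 2.12% of all genes. The median over 17 was 0.24, and 0.26 in the transgenic pair. Both midbrain libraries were above both frontal cortex libraries for 13, beside 12.1% of all genes at the minimum. Hspa1a and Hspa1b, near-identical copies of the inducible HSP70 gene whose reads may be split between them, were at 1150 and 1474 CPM and at 423 and 560 CPM. Hsp90aa1, the inducible HSP90, was at 300.1 and 385 CPM. Their ratios were 0.36, 0.40 and 0.36, and 0.71, 0.86 and 0.55 in the transgenic pair. Hspa5, the chaperone of the endoplasmic reticulum, had a ratio of 0.14.

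Most other programmes differed little. Of 28 interferon-induced genes 1 passed 1.2 times, Ifi27l2a at 0.35, and the median was 0.07. Of 12 genes of antigen presentation, 9 of glucocorticoid response and 11 of the circadian clock, none did; B2m, the shared chain of class I molecules, had a ratio of -0.01 and Tsc22d3, a glucocorticoid-induced gene, 0.11. Among 13 genes of adhesion and inflammation 3 were higher and 1 lower: Socs3, a feedback inhibitor of cytokine signalling, at 51.0 and 78.1 CPM, Icam1 and Vcam1 as above, and the chemokine Cxcl12 at 3157 and 2536 CPM (-0.32). The metallothioneins Mt1 and Mt2, which bind zinc and copper, were at 509 and 732 and at 109.5 and 148 CPM, with ratios of 0.52 and 0.43, and 0.29 and 0.44 in the transgenic pair. Basement membrane and integrin genes stayed within 1.2 times, all 16 of them. Among 9 genes of VEGF and Tie signalling, 1 was higher, the co-receptor Nrp2 at 0.29, and 1 lower, the ligand Vegfc at -0.34, with the receptors Kdr at -0.24 and Flt1 at -0.10.

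**Figure D4:**
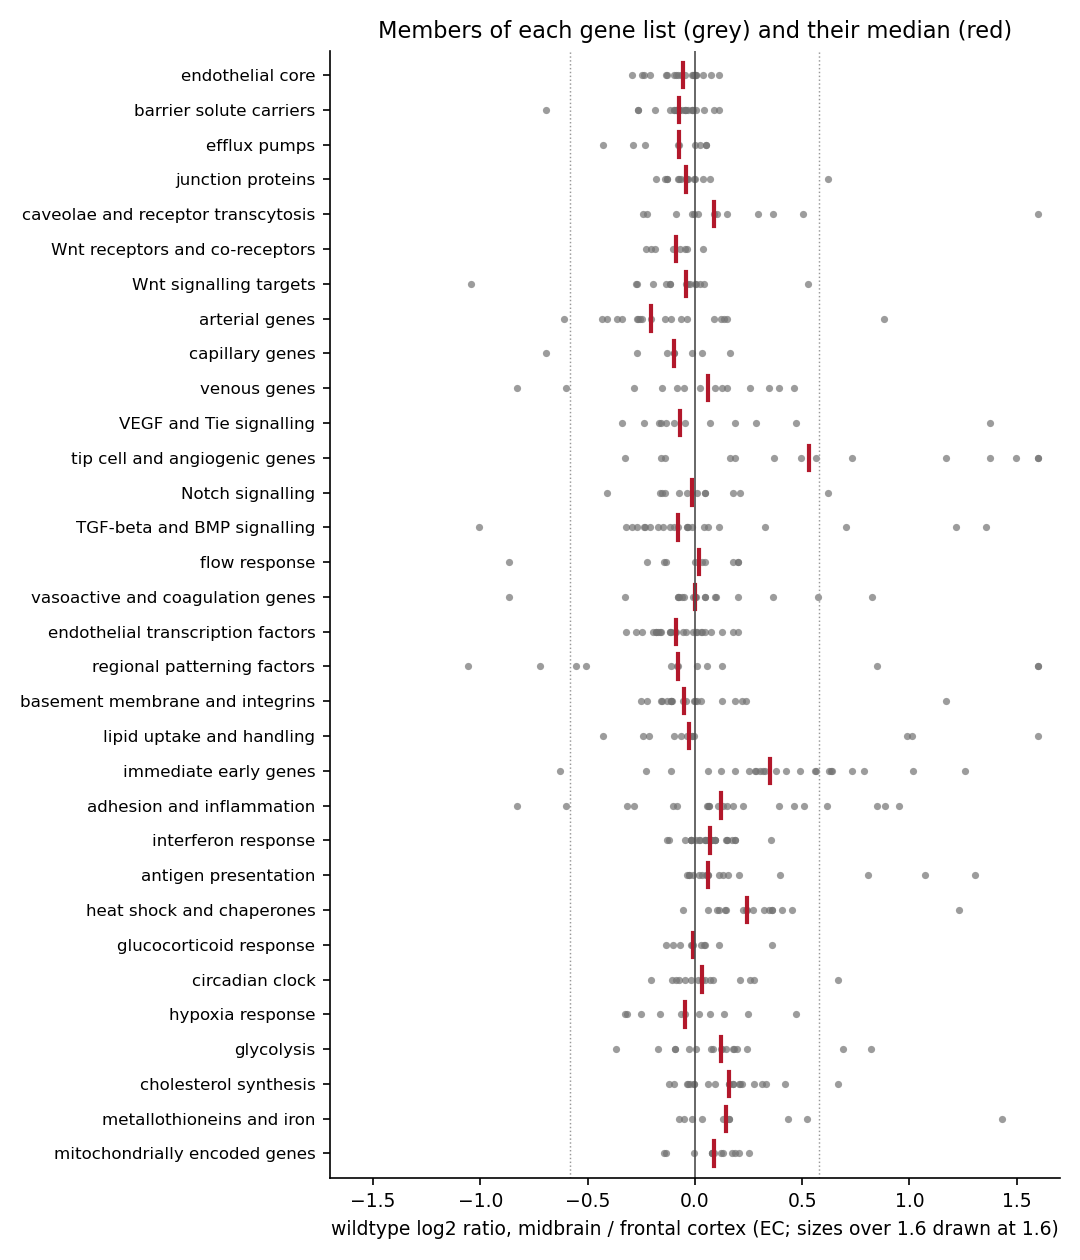
Wildtype log2 ratio of midbrain to frontal cortex for every member with 20 UMIs (grey points) of 32 gene lists, with the median of each list (red bar); dotted lines mark 1.5 times. The immediate early genes have a median of 0.35, heat shock and chaperones 0.24 and arterial genes -0.21; the tip cell list, at 0.53, consists mostly of genes under 20 CPM.

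Among genes at 20 CPM, the largest ratios belonged to genes of other cell types. Of the 45 genes 1.5 times higher in midbrain, 42 had a higher level in another label of the midbrain library, and 3 were led by EC. The 42 included Fos, Fosb, Junb and Atf3. The share of all genes at 20 CPM with a higher level in another label was not computed, so the 42 stand without a background. Ttr, the transthyretin gene of choroid plexus epithelium, was at 7.96 CPM in wildtype frontal cortex and 2737 in wildtype midbrain, and at 13.7 and 1509 in the transgenic libraries. In wildtype midbrain it was at 1905 CPM or more in all 12 other labels of 50 cells, 8 of them above EC, and at 277684 CPM in the cells labelled CPC. The summed level of 10 ependymal and choroid plexus markers in EC was 59.2 and 2963 CPM, with 1 and 0 markers at 0. Ttr and Enpp2, a choroid plexus gene at 43.5 and 187 CPM, were both chosen after their values were seen.

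Genes of astrocytes came next. Slc6a11, the GABA carrier GAT3, was at 3.34 CPM in frontal cortex EC and 25.5 in midbrain EC, and at 583 and 2217 CPM in astrocytes of the same libraries. The ratio in EC was 2.93, and 2.37 in the transgenic pair. Ndrg2 and Mt3, also led by astrocytes or ependymal cells, had ratios of 1.71 and 1.43 in the wildtype and 0.18 and -0.14 in the transgenic pair. The summed level of 15 astrocyte markers in EC was 1308 CPM in frontal cortex and 1257 in midbrain, of which S1pr1, which endothelium itself makes, gave 1085 and 931, and 14 of the 15 had a ratio above 0. Smooth muscle markers summed to 128 and 170 CPM and pericyte markers to 725 and 876 CPM, all 7 and 8 of 9 of them higher in midbrain. Microglial markers went the other way, at 315 and 239 CPM with 14 of 14 lower, and the microglial genes Cx3cr1, Ccl3 and Ccl4 were among the 9 lower genes. The part of this RNA in the other results was not tested. In cells with under 10 UMIs of 72 markers of other types per 10000, a count without Ttr and without smooth muscle and pericyte markers, 1863 and 1336 of the EC cells, the ratios of Fos, Slc16a1 and Edn1 were 1.0, -0.67 and -0.91. This filter does not act on smooth muscle RNA, and SMC held the highest Fos level in frontal cortex and midbrain, 4262 and 5448 CPM.

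A small group of midbrain cells within the EC label had low levels of many barrier genes. Plvap encodes the diaphragm protein of fenestrated vessels. Its level in EC was 0.14 CPM in wildtype frontal cortex, 18.6 in wildtype midbrain, 0.12 in transgenic frontal cortex and 8.64 in transgenic midbrain. In both midbrain libraries EC was the label with the highest level. In frontal cortex the highest level was in cells labelled mNeur, at 42.6 CPM in the wildtype and 20.6 in the transgenic library, above midbrain EC. Nearly all Plvap UMIs of wildtype midbrain EC, 271 of 275, lay in 15 cells with 2 or more each, 0.81% (0.45 to 1.33) of EC. Transgenic midbrain had 3 such cells of 792, and the frontal cortex libraries 0 of 2240 and 0 of 861, which allows shares of up to 0.134% and 0.348% at 3 counts, with exact upper bounds of 0.165% and 0.428%. Outside EC, 6 of 5775 wildtype midbrain cells and 9 of 3999 wildtype frontal cortex cells had 2 or more Plvap UMIs. Of the 15 cells, 12 were in cluster 0, and their median depth of 8562 UMIs was near the 7203 of EC without Plvap.

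The cells were chosen by Plvap alone, after its values were seen, and their other genes are given as a description of 15 cells. They carried the pan-endothelial genes: Flt1 was at 4422 CPM in them and 5616 in the remaining midbrain EC, Pecam1 at 959 and 747, and Kdr, the main VEGF receptor, at 2292 and 528. Cldn5 was at 395 and 6806 CPM, Slc2a1 at 176 and 2068, Mfsd2a at 14.1 and 216 and Abcb1a at 296 and 1564. Of the barrier carriers at 20 CPM in the remaining EC, 20 of 22 were lower by 1.5 times in these cells and none was higher. Of the efflux pumps 4 of 6 were lower. Of the junction genes 6 of 12 were lower and 1 was higher, Jam3 at 395 and 9.24 CPM. None of these carriers, pumps or junction genes was at 0 UMIs. All 13 Wnt-responsive genes were lower, with Lef1 at 84.6 and 621 CPM and 4 of the 13 at 0 UMIs. The share of all genes lower by 1.5 times in these cells was not computed, so these counts stand without a background. Some members rest on very few UMIs in the 15 cells, such as 1 each for Slc38a5 and Slc52a3.

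Several genes were concentrated in these 15 cells. Esm1, a proteoglycan gene of tip cells, had all of its 126 midbrain UMIs there. Other genes of the tip cell list went both ways. Of 4 at 20 CPM in the remaining EC, Dll4 and Nid2 were higher and Plaur lower by 1.5 times, and Adm was at 0 UMIs. Plpp3, a lipid phosphatase, was at 3745 CPM in the 15 cells and 43.1 in the rest. Cd24a was at 1143 and 10.5 CPM and Igfbp3, which binds insulin-like growth factors, at 2158 and 11.2. The same cells in transgenic midbrain, 3 in number, had Plpp3 at 5030, Igfbp3 at 4721 and Esm1 at 1721 CPM, and no Cldn5 or Slc2a1 UMI. Ratios of the whole sum depended on them: without them Plpp3 went from 1.44 to 0.58, Cd24a from 1.39 to 0.36 and Igfbp3 from 0.78 to -0.73. Ttr was at 2433 CPM in them and 2740 in the rest. Irx3, lower in midbrain EC as a whole, was at 183 CPM in these cells and 18.6 in the rest.

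The transgenic libraries gave the same sign for 41 of the 54 genes, 35 of 45 higher and 6 of 9 lower, beside 58.2% of all 6704 genes. The 54 were chosen for the size of their wildtype ratio. All genes were not, and their median size was 0.07, so the 2 shares cannot be compared. Of 6822 genes at 20 CPM in the transgenic pair, 99 (1.45%) passed 1.5 times, 61 (0.894%) higher and 38 (0.557%) lower, and 409 (6.0%) were higher and 499 (7.31%) lower by 1.2 times, 13.3% in all. Of the 54 wildtype genes, 26 passed 1.5 times in both pairs in the same direction, 21 higher and 5 lower. Both midbrain libraries were below both frontal cortex libraries for 6 of the 9 lower genes, and for 21.3% of all genes. The 9 were chosen for a lower level in wildtype midbrain and all genes were not, so these shares cannot be compared. Of the 4 lower genes led by EC, Edn1 and Slc16a1 were lower in both pairs, whereas Bmx and Amd2 had ratios of 0.18 and 0.87 in the transgenic pair. Hbb-bs, a haemoglobin gene of red cells, had the lowest transgenic ratio of the 45 higher genes, -1.29, against 0.62 in the wildtype, and erythroid markers in EC summed to 25.5 and 36.9 CPM in the wildtype and 537 and 268 CPM in the transgenic libraries.

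**Figure D5:**
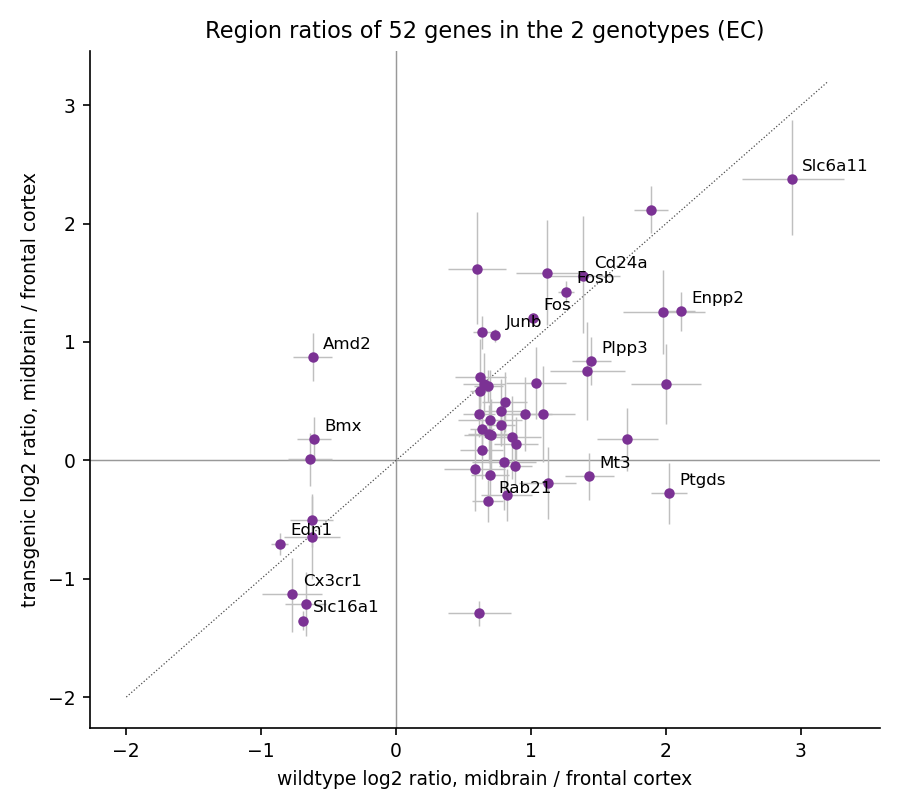
Log2 ratio of midbrain to frontal cortex in the wildtype (horizontal) and transgenic (vertical) EC of 52 of the 54 genes past 1.5 times in the wildtype, with exact 95% counting intervals; Ttr and 1500015O10Rik, with ratios of 8.43 and 6.10 in the wildtype, are left out. Points in the upper right and lower left have the same sign in both genotypes, as 41 of all 54 do.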

How the data were processed

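The authors deposited 1 matrix of raw UMI counts for each region, made with Cell Ranger 3.0.0 and Seurat 3.1.5 on mm10, per the submitters' processing notes. The deposited cell tables give library, cluster, cell type label and mitochondrial percent. Filters on cells and treatment of doublets are not given in the sources used here, and no doublet caller was run. Labels were used as deposited.

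UMIs of EC cells were summed per library over 19040 genes in both regions' tables. CPM, log2 ratios and exact Clopper-Pearson 95% intervals were computed in Python 3.11.15 with scipy 1.17.1. The intervals of ratios cover counting error only, and those of shares the draw of cells from 1 library only. A ratio against 0 UMIs used a floor of 3. Calls needed a log2 ratio of 0.58 (1.5 times, rounded) and 20 CPM in at least 1 library. List medians cover members with 20 UMIs over both libraries. The script was tested on simulated counts. No p-value was computed.

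Genes named were, at 20 CPM and 100 UMIs, the 10 largest and 10 smallest ratios whose direction TMM scaling and averaging CPM over cells left as it was, likewise 8 and 8 among genes led by EC, and up to 4 members of each list or the members a pathway is known for. Predicted, mitochondrial, ribosomal protein and haemoglobin genes and other types' markers were left out of the rankings. The Plvap cells and their genes, Igfbp3, Vstm2b, Ttr, Enpp2, Hbb-bs and the predicted genes were chosen after their values were seen. Members and lists were chosen with earlier results of these data known. Alternatives were edgeR 4.0.16 TMM factors, DESeq2 1.42.0 size factors, other totals, thinned cells, cell filters, cluster weights and level minimums. Gene coordinates follow GENCODE (GRCm38).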

Additional observations from a re-analysis of the deposited data

Results flagged for a closer look

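Of the 54 genes past 1.5 times, 13 had a region ratio of the opposite sign in the transgenic pair. In 3 of them, other types' markers aside, the ratio differed in sign between wildtype and transgenic EC, with counting intervals that leave out 0 on both sides. Ptgds, prostaglandin D synthase, was at 30.8 and 125 CPM in wildtype frontal cortex and midbrain EC (log2 ratio 2.02) and at 37.3 and 30.7 CPM in the transgenic libraries (-0.28). Of its 1846 UMIs in wildtype midbrain EC, 1205 lay in 10 cells, and its highest level in that library, 29684 CPM, was in the cells labelled OPC. Rab21, a small GTPase of endosomes, was at 54.8 and 87.7 CPM in the wildtype (0.68) and 79.5 and 62.6 in the transgenic pair (-0.34). Amd2, an S-adenosylmethionine decarboxylase gene, was at 59.4 and 38.6 CPM (-0.62) and at 39.2 and 71.6 CPM (0.87). With 1 library in each group, the difference between genotypes was not tested.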

How the results depend on the processing

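The 45 genes past the threshold, higher in midbrain, and the 9 genes past the threshold, lower in midbrain, were recounted under 15 other settings of cells, scaling or level. With all clusters weighted alike 113 genes were higher and 118 lower, and in the arterial clusters alone 143 and 126. With no minimum level the counts were 1751 and 928, with a minimum of 100 CPM 11 and 2, and after thinning to 3000 UMIs 15 genes were lower. The remaining settings left both counts within 1.5 times, and the cause of these shifts was not tested. Of the 54 genes, 53 had the same sign without the arterial clusters, 52 in them alone, 53 without the Plvap cells and all 54 under each of the other settings of cells or scaling. The sign turned for Bmx without the arterial clusters (0.47) for Vstm2b in the arterial clusters alone (-0.14), and for Igfbp3 there (-0.10) and without the Plvap cells (-0.73). No setting of cells or scaling moved the median ratio of all genes beyond -0.04. The low-RNA, arterial, shallow-cluster and Plvap settings were chosen after seeing the data. Leaving out cells with 4 or more UMIs of other types' markers kept 253 of 2240 and 4 of 1860 cells and was not used. Since the tables hold no separate arterial or venous label, EC was joined with Hb_EC alone. No paired analysis was possible because the wildtype comparison has 1 library on each side, and a fit of region over both genotypes was not run.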

Other observations

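Among the genes 1.5 times higher in midbrain, the 3 led by EC were predicted transcripts, which the naming rule leaves out. Gm26802 was at 34.0 CPM in wildtype frontal cortex, 126 in wildtype midbrain, 33.4 in transgenic frontal cortex and 145 in transgenic midbrain. Gm26802 thus did not overlap between regions, being higher in both midbrain libraries as 12.1% of all genes were, with ratios of 1.89 and 2.12. It was higher in midbrain clusters 0, 6 and 9, at 147, 89.9 and 139 CPM, than in frontal cortex clusters 0, 6 and 5, at 28.3, 27.6 and 51.6 CPM. Gm26870 was at 62.0 and 99.4 CPM in the wildtype and 98.1 and 152 in the transgenic libraries, with 502 of its 1466 wildtype midbrain UMIs in 10 cells. Gm12216 was at 19.4 and 31.5 CPM in the wildtype and 21.4 and 24.8 in the transgenic libraries.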
